A study of Homo sapiens with 6 samples.

Results

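The genes described here are 44 human receptor tyrosine kinase genes, taken as a list of symbols from most receptor families of this class and leaving out the insulin receptor family. All 44 symbols had a row among the 50550 gene rows of the deposited tables, and 39 had enough reads to be tested. RNA was sequenced from U2OS, an established cell line from a human osteosarcoma, a bone tumour. The series title speaks of depleting LINC00673, a long noncoding RNA, and its design text of a knockdown compared with wild-type cells. The 3 libraries titled Lv_LINC00673 carry the genotype label LINC00673 and the 3 titled Lv_NC the genotype label NC. Neither the construct nor the meaning of NC is spelled out, no treatment or time is given, and both groups are the same cell line. Every fold change is Lv_LINC00673 over Lv_NC.

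Receptor tyrosine kinases span the plasma membrane, bind a growth factor or a cell-surface ligand outside the cell, and phosphorylate tyrosines on themselves and on other proteins inside it. The phosphotyrosines recruit adaptors such as GRB2 and SHC1, which feed the RAS-MAP kinase and PI3-kinase pathways, and ubiquitin ligases of the CBL family send the active receptor to lysosomes. In osteosarcoma, MET, AXL, PDGF and EGF receptors and ephrin receptors have been studied as regulators of growth and migration. RNA levels say nothing of receptor protein or phosphorylation, neither of which was measured here.

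Total counts were 61815841 to 71237493 in the Lv_LINC00673 libraries and 76814723 to 87227980 in the Lv_NC libraries. LINC00673 itself had 479, 417 and 435 counts in Lv_LINC00673 and 709, 751 and 516 in Lv_NC (-0.41 on the log2 scale with SE 0.16, adjusted p = 0.0924 in edgeR's quasi-likelihood test), so it did not pass the threshold and groups are named by their titles. The labels do not say whether the 3 libraries per group are separate cultures, so p-values reflect variation among these 6 libraries alone, and that variation may be technical. Of 9 osteoblast and bone markers 5 were tested. All 9 summed to 173 to 190 FPKM in Lv_LINC00673 and 180 to 191 FPKM in Lv_NC (deposited fragments scaled to transcript length and depth). Most of this was SPARC, with a mean of 128 FPKM in Lv_LINC00673 and 147 in Lv_NC, and COL1A1, with 40.6 and 33.0. Another 3 of the 9 stayed under 0.5 FPKM in every library. RUNX2 and ALPL were higher and SPARC lower (log2 fold changes 1.25, 0.50 and -0.36), and the osteoblast factor SP7 had 0 counts in Lv_LINC00673 and 24 in Lv_NC. The summed FPKM of 6 epithelial markers was 12.6 to 13.3 in Lv_LINC00673 and 8.57 to 10.3 in Lv_NC, and that of 5 muscle markers 13.4 to 15.4 in Lv_LINC00673 and 10.6 to 12.6 in Lv_NC. No tested gene of these 2 lists was called, but with an offset for GC content and transcript length CLDN4 of the epithelial (0.44, adjusted p = 0.0203) and MYOD1 of the muscle markers (0.50, adjusted p = 0.00442) were higher. For 6 neural markers the sums were 8.55 to 9.02 FPKM in Lv_LINC00673 and 8.74 to 9.29 in Lv_NC, with 1 gene higher and 1 lower. For 6 blood markers they were 36.0 to 40.9 FPKM in Lv_LINC00673 and 31.1 to 41.8 in Lv_NC. CD68 alone averaged 37.9 FPKM in Lv_LINC00673 and 36.6 in Lv_NC, and the other 5 stayed under 0.5 FPKM in every library. The part of these markers in the results below was not tested. In bulk RNA, fewer cells of a type and less RNA per cell cannot be told apart.

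AXL and EPHA2 dominated the receptor RNA of these cells in both groups. On the FPKM scale, AXL, a receptor for GAS6, had 156, 152 and 154 in Lv_LINC00673 and 167, 175 and 182 in Lv_NC. EPHA2, a receptor for ephrin-A ligands, had 139, 119.8 and 107 FPKM in Lv_LINC00673 and 186, 198 and 189 in Lv_NC. AXL was thus the highest member in every Lv_LINC00673 library and EPHA2 in every Lv_NC library. CPM are counts scaled to library size with TMM factors. In CPM, AXL and EPHA2 made up 50.1 to 51.0% of the summed 44 gene rows in Lv_LINC00673 and 57.4 to 57.8% in Lv_NC. The sum itself was 2541, 2260 and 2216 CPM in Lv_LINC00673 and 2871, 3100 and 3023 CPM in Lv_NC. The 3 Lv_LINC00673 sums lay below the 3 Lv_NC sums, and most of the gap came from the EPHA2 and AXL rows.

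The next level was held by PTK7, a receptor of planar cell polarity with an inactive kinase domain, at 42.2, 36.3 and 37.1 FPKM in Lv_LINC00673 and 44.5, 45.2 and 40.9 in Lv_NC. It stood above all lower members in each library. Below it, FGFR4 and EPHB4 overlapped in each group (FGFR4 29.02 to 31.4 and EPHB4 30.9 to 34.9 FPKM in Lv_LINC00673, FGFR4 33.4 to 36.7 and EPHB4 32.7 to 35.1 in Lv_NC), as did FGFR1 and RYK. ERBB2, TYRO3 and EPHB2 completed the 10 members with a mean of at least 10 FPKM in both groups. Levels and ranks here use each gene's own row, without rows numbered as further copies. DDR1, at 4.20 FPKM in Lv_LINC00673 and 3.69 in Lv_NC on its own row, is split over 7 rows. Together these averaged 86.0 CPM in Lv_LINC00673 and 88.6 CPM in Lv_NC, near ERBB2 at 81.1 and 96.0 CPM. DDR1 is thus ranked too low here. In Lv_LINC00673, 26 members had a mean of at least 1 FPKM, and in Lv_NC 25. At 0.1 FPKM these numbers were 35 in each group. MET stood at rank 11 in Lv_LINC00673 and rank 16 in Lv_NC.

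**Figure D1:**
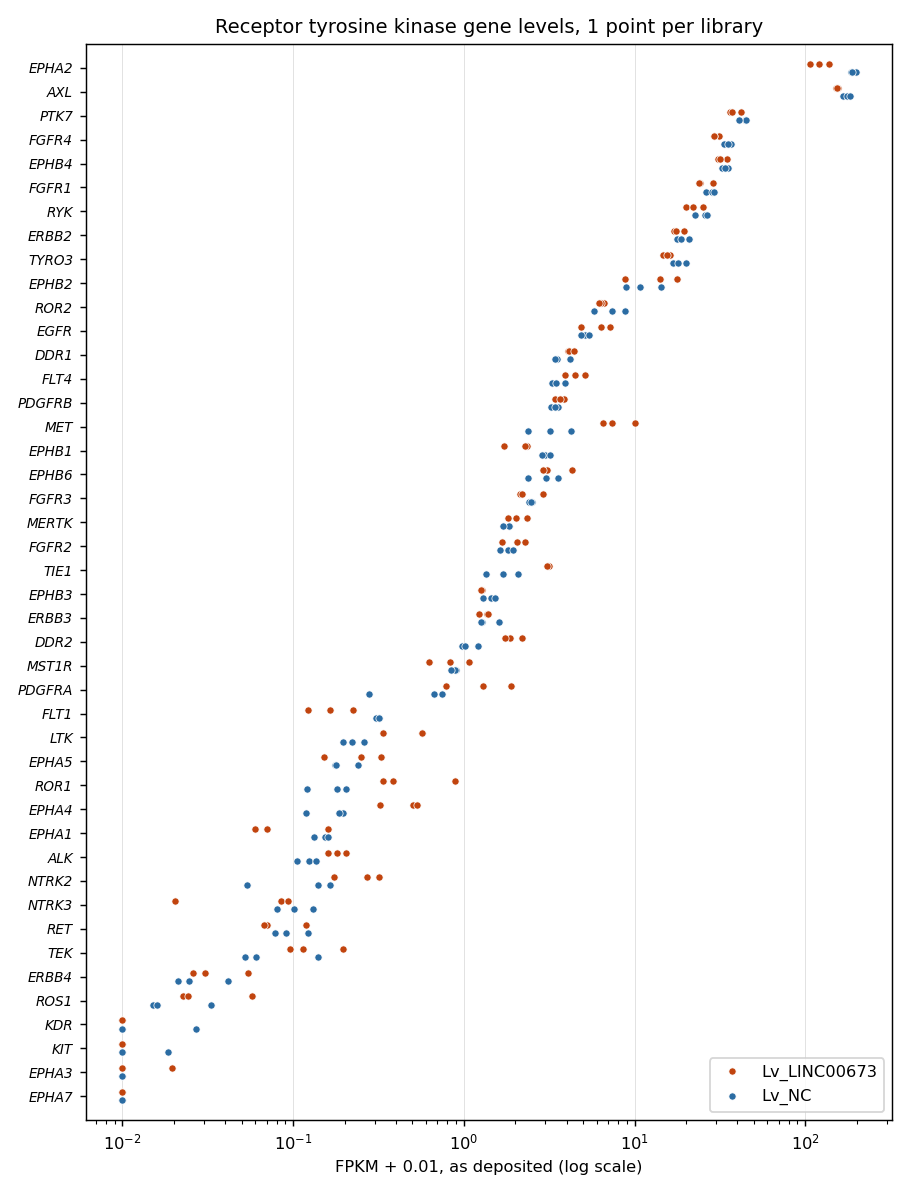
Deposited FPKM plus 0.01 of the 44 genes on a log axis, from each gene's own row without numbered copies. Each library is 1 point (Lv_LINC00673 above, Lv_NC below for each gene), and genes are ordered by level. AXL and EPHA2 lie above 100 FPKM in all libraries, and KDR, KIT, EPHA3 and EPHA7 are at or next to 0.

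Of the 39 tested genes, 8 were higher in Lv_LINC00673 and 7 lower at an adjusted p of 0.05, and 24 did not pass. Among all 21933 tested rows the same rule called 26.8% (14.3% higher and 12.5% lower), and among rows with a mean of at least 10 CPM 40.9%. The members' share of 38.5% lies between these values, so the count alone does not set the family apart. Their median log2 fold change was -0.045, against 0.052 over all tested rows. For 20 of the 39, no Lv_LINC00673 value fell within the Lv_NC range or the reverse, and 45.1% of all tested rows were separated in this way. All adjusted p-values are from edgeR's quasi-likelihood test over all 21933 rows unless another test is named.

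By at least 2-fold, 4 members were higher (MET, EPHA4, ROR1 and PDGFRA) and 1 lower (FLT1), while 7.55% of all tested rows were called at least 2-fold higher and 0.821% at least 2-fold lower. EGFR, DDR2, TIE1 and LTK were higher by smaller folds. EPHA2, AXL, EPHB1, FGFR4, TYRO3 and PTK7 were lower by smaller folds. The called members that were lower in Lv_LINC00673 include the 3 of the highest FPKM, AXL, EPHA2 and PTK7. The counts depended on single libraries. Dropping Lv_LINC00673 library 2 left 3 members called higher and 3 lower, and dropping Lv_LINC00673 library 3 left 4 and 2. Dropping Lv_NC library 2 left 5 higher and 4 lower, and dropping Lv_NC library 3 left 3 and 2. Dropping Lv_LINC00673 library 1 gave 6 higher and 10 lower, and dropping Lv_NC library 1 gave 7 and 6. With library totals as the only scaling, the median over all rows shifted up by 0.17 on the log2 scale, with 8 members higher and 2 lower. The 2 tests on log2 FPKM values gave 4 higher and 1 lower each. Of all called rows, 53.5% were higher with TMM factors, 76.8% with library totals, and 72.5% and 72.4% in the 2 FPKM tests.

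**Figure D2:**
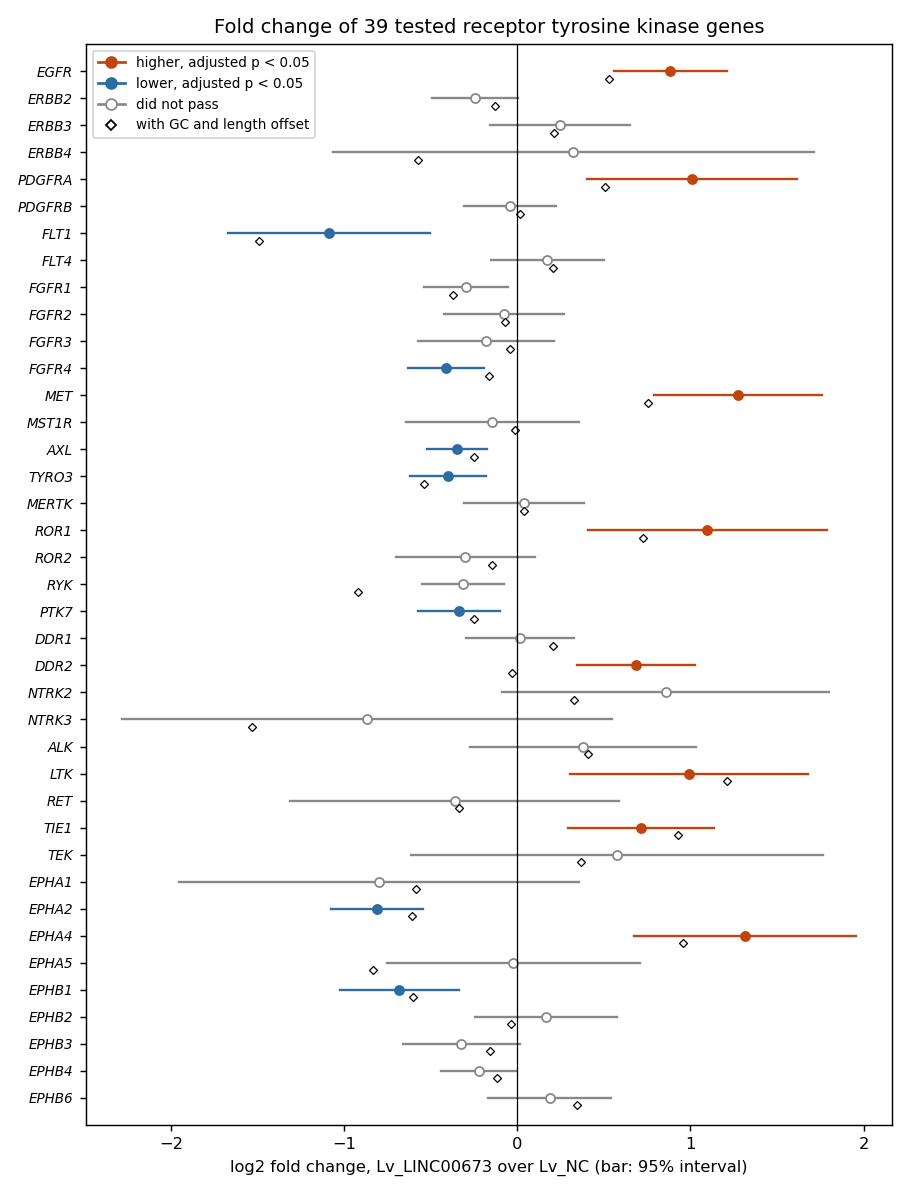
Log2 fold change (Lv_LINC00673 over Lv_NC) of the 39 tested genes by family, with 95% intervals; coloured points passed an adjusted p of 0.05, and diamonds give the value after an offset for GC content and transcript length. MET, EPHA4 and EGFR stay right of 0 and EPHA2 and FLT1 left of it with the offset, whereas DDR2 moves to -0.033.

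MET and EPHA2 were called under all 17 alternatives, and EGFR and EPHA4 under 15 of them. The 250 bases before the annotated start of these 4 genes are shown because they are the members whose difference was most often called. They come from RefSeq (GRCh38.p14), on the gene's strand, 5′ to 3′. The genes lie on chromosomes 7 (MET, chr7:116671946-116672195, plus strand, and EGFR, chr7:55018767-55019016, plus strand), 2 (EPHA4, chr2:221574203-221574452, minus strand) and 1 (EPHA2, chr1:16156070-16156319, minus strand). Capitals mark GGGCGG or its reverse complement CCGCCC, the core bound by SP1 and KLF factors, and in EPHA2 also CATTCC, the reverse complement of the TEAD motif GGAATG.
MET: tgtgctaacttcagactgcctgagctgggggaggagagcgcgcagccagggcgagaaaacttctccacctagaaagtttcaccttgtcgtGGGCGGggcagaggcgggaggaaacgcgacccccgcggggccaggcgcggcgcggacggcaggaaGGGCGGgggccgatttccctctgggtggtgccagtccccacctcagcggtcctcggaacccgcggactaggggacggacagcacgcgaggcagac
EGFR: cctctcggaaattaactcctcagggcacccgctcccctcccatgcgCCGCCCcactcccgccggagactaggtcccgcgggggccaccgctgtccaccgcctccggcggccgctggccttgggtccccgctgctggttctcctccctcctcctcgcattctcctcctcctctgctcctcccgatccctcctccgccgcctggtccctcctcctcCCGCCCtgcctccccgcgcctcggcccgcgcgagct
EPHA4: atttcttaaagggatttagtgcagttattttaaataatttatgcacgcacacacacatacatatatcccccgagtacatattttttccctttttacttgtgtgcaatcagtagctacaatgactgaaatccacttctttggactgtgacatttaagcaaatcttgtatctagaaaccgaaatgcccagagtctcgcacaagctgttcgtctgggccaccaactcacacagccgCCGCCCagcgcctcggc
EPHA2: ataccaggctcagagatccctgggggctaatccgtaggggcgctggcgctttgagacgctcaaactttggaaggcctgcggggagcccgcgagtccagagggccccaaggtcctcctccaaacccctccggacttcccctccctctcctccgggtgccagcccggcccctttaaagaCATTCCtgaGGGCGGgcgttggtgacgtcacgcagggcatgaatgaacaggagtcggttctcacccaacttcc
The MET and EGFR stretches hold 2 GGGCGG matches each at a GC content of 68.4% and 73.6%. That of EPHA4 holds 1 at 43.2% GC and that of EPHA2 holds 1 at 63.2% GC. Of the 41 members with a promoter in the table, 31 (75.6%) held GGGCGG on either strand, against 42.3% of 27305 promoters of the same length. The members' median GC content was 68.4%, against 58.0% over all promoters. The AP-1 motif TGANTCA was in 7.32% of members and 6.6% of all, the ETS motif CCGGAAG in 7.32% and 8.82%, GGAATG in 4.88% and 11.9%, TATAAA in 4.88% and 11.1%, and the E-box CACGTG in 0 and 6.49%. These are matches of letters on both strands, which do not overlap each other in the 4 stretches shown.

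In the EGF receptor family, EGFR was the member that passed the test. EGFR binds EGF, TGFA, AREG, HBEGF and EREG, and had 48.0, 59.8 and 52.4 CPM in Lv_LINC00673 and 34.4, 25.5 and 26.9 CPM in Lv_NC. Every Lv_LINC00673 library lay above every Lv_NC library, and the fitted difference was 1.84-fold (0.88 on the log2 scale with SE 0.14, adjusted p = 0.00559, 95% interval 0.56 to 1.21). The deposited FPKM values of the same gene were 4.84, 7.17 and 6.33 in Lv_LINC00673 and 5.12, 5.42 and 4.86 in Lv_NC, and these overlap. On log2(FPKM + 1) the change was 0.20 with an adjusted p of 0.335 from limma (1.71e-06 to 0.338 across the 17 alternatives), so the call on EGFR holds for counts and not for FPKM. ERBB2, which binds no known ligand and pairs with the other family members, had the higher level per length, at 19.4, 17.02 and 17.5 FPKM in Lv_LINC00673 and 17.7, 20.8 and 18.8 in Lv_NC. In CPM it had 89.9, 75.1 and 78.2 in Lv_LINC00673 and 87.7, 106 and 94.0 in Lv_NC. These groups overlap and ERBB2 did not pass (-0.24 on the log2 scale with SE 0.11, adjusted p = 0.131), although it did without Lv_LINC00673 library 1 (adjusted p = 0.0499, 0.0499 to 0.57 across the alternatives). ERBB3, a neuregulin receptor with weak kinase activity, and ERBB4, another neuregulin receptor, did not pass (log2 fold change 0.25, adjusted p = 0.342 for ERBB3 and 0.32, adjusted p = 0.734 for ERBB4). ERBB4 was scarcely present, with 19, 35 and 13 counts in Lv_LINC00673 and 12, 16 and 31 in Lv_NC.

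MET, the receptor for hepatocyte growth factor, had the second largest rise among called members after EPHA4. Its level was 42.4, 59.9 and 46.4 CPM in Lv_LINC00673 and 25.8, 14.8 and 20.8 CPM in Lv_NC. The lowest Lv_LINC00673 library exceeded the highest Lv_NC library, and the fitted difference was 2.42-fold (1.28 on the log2 scale with SE 0.21, adjusted p = 0.00607, interval 0.79 to 1.76). The deposited FPKM showed the same order, with 6.54, 10.01 and 7.41 in Lv_LINC00673 and 4.23, 2.37 and 3.20 in Lv_NC. With an offset for GC content and length the log2 fold change was 0.76 (adjusted p = 0.00292, 1.49e-07 to 0.0462 across the alternatives). Its ligand gene HGF had 0 counts in all 6 libraries. MST1R, the related receptor for macrophage stimulating protein, had 4.92, 3.57 and 2.86 CPM in Lv_LINC00673 and 4.17, 4.38 and 3.99 in Lv_NC, overlapping (-0.14 on the log2 scale with SE 0.22, adjusted p = 0.668).

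Among the platelet-derived growth factor receptors, PDGFRA was higher in Lv_LINC00673. PDGFRB had the higher level per length, at 3.41, 3.83 and 3.63 FPKM in Lv_LINC00673 and 3.22, 3.56 and 3.43 in Lv_NC, and did not pass (-0.045 on the log2 scale with SE 0.12, adjusted p = 0.81, interval -0.31 to 0.22). PDGFRA, which binds PDGF-AA and PDGF-CC among others, had 4.11, 7.01 and 4.61 CPM in Lv_LINC00673 and 2.93, 1.90 and 2.98 CPM in Lv_NC. The groups did not overlap, with library 2 the highest of Lv_LINC00673 and the lowest of Lv_NC (1.01 on the log2 scale with SE 0.27, adjusted p = 0.025). In FPKM it had 0.776, 1.88 and 1.28 in Lv_LINC00673 and 0.733, 0.269 and 0.660 in Lv_NC, a ratio of means of 2.37 without overlap, which did not pass in limma on log2(FPKM + 0.1) (1.12, adjusted p = 0.0936). The call was lost with the GC and length offset (0.51, adjusted p = 0.0774). Its adjusted p was 0.0952 with Lv_LINC00673 library 2 left out, 0.0581 with Lv_LINC00673 library 3 left out, 0.0667 with Lv_NC library 2 left out and 0.0604 with Lv_NC library 3 left out (0.00295 to 0.0956 across the alternatives). KIT, the receptor for stem cell factor, was not tested, with 0 counts in the 3 Lv_LINC00673 libraries and 0, 4 and 0 counts in Lv_NC.

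The vascular endothelial growth factor receptors were scarce apart from FLT4. FLT1, a receptor with high affinity for VEGFA that acts in part as a decoy, had 0.820, 1.46 and 1.09 CPM in Lv_LINC00673 and 2.40, 2.36 and 2.40 CPM in Lv_NC. Lv_NC libraries lay close together (SD 0.0255 CPM, n = 3), and all Lv_LINC00673 libraries were below them (2.13-fold lower, -1.09 on the log2 scale with SE 0.26, adjusted p = 0.017). With the GC and length offset the log2 fold change was -1.50 (adjusted p = 0.00297). Its adjusted p was 0.0626 with Lv_LINC00673 library 3 left out and 0.0552 with Lv_NC library 3 left out, and the call was lost on both FPKM scales (0.00177 to 0.104 across the alternatives). FLT4, the VEGFC receptor of lymphatic vessels, had 26.3, 20.3 and 22.2 CPM in Lv_LINC00673 and 18.3, 20.3 and 22.4 in Lv_NC and did not pass (0.17 on the log2 scale with SE 0.14, adjusted p = 0.406). KDR, the main signalling receptor of blood vessels, was not tested, with 0 counts in every Lv_LINC00673 library and 0, 0 and 8 in Lv_NC. A count of 0 allows up to 3 counts, which is 0.0410 to 0.0448 CPM in an Lv_LINC00673 library, for counting error only.

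Of the angiopoietin receptor pair, TIE1, which modulates its partner TEK, was higher in Lv_LINC00673. TIE1 had 12.2, 11.6 and 11.5 CPM in Lv_LINC00673 and 7.09, 8.83 and 5.58 CPM in Lv_NC. The Lv_LINC00673 libraries lay close together and all above Lv_NC (1.64-fold, 0.71 on the log2 scale with SE 0.19, adjusted p = 0.0239). With the GC and length offset the log2 fold change was 0.93 (adjusted p = 0.00422), whereas the adjusted p was 0.0509 with Lv_LINC00673 library 1 left out, 0.0702 with Lv_LINC00673 library 2 left out, 0.0743 with Lv_LINC00673 library 3 left out and 0.0787 with Lv_NC library 3 left out (0.00312 to 0.0787 across the alternatives). TEK itself had only 30, 57 and 34 counts in Lv_LINC00673 and 52, 22 and 17 in Lv_NC and did not pass (0.58, adjusted p = 0.455). FLT1 and TIE1 are best known from endothelial cells, whose other markers were also measured. The summed FPKM of 7 endothelial markers was 2.59 to 3.42 in Lv_LINC00673 and 1.86 to 2.21 in Lv_NC, which do not overlap. None of the 6 tested markers was called, EMCN had 0 counts in all libraries, and PECAM1 had 22, 20 and 25 counts in Lv_LINC00673 and 8, 34 and 8 in Lv_NC. The log2 fold changes were 0.90 for CLDN5, 0.72 for VWF, 0.60 for PECAM1, 0.29 for CDH5, 0.099 for ERG and -0.062 for ESAM. VWF had 2.86, 2.57 and 2.44 CPM in Lv_LINC00673 and 1.81, 1.86 and 1.10 in Lv_NC, without overlap (adjusted p = 0.0639). The part of these markers in the TIE1 and FLT1 differences was not tested.

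All 4 fibroblast growth factor receptors were present, and FGFR4 was lower in Lv_LINC00673. FGFR4, which binds FGF1 and, with beta-klotho, the hormone FGF19, had 95.3, 82.3 and 82.7 CPM in Lv_LINC00673 and 109, 124 and 113 CPM in Lv_NC. The groups were separate but the difference was small (1.33-fold lower, -0.41 on the log2 scale with SE 0.096, adjusted p = 0.0167). The call was lost with library totals (-0.25, adjusted p = 0.0551), with the GC and length offset (-0.16, adjusted p = 0.0521) and on both FPKM scales. Its adjusted p was 0.0623 with Lv_LINC00673 library 2 left out, 0.0724 with Lv_LINC00673 library 3 left out, 0.0587 with Lv_NC library 2 left out and 0.055 with Lv_NC library 3 left out (0.00293 to 0.0875 across the alternatives). FGFR1, a receptor of mesenchymal cells, had 151, 123 and 124 CPM in Lv_LINC00673 and 149.5, 169 and 171 in Lv_NC. Lv_LINC00673 library 1 overlapped Lv_NC, and FGFR1 did not pass (-0.30 on the log2 scale with SE 0.11, adjusted p = 0.0721), but it did without that library (adjusted p = 0.0169) and with the offset (-0.37, adjusted p = 0.0188, 0.0169 to 0.369 across the alternatives). FGFR2 and FGFR3 had means of 8.79 CPM in Lv_LINC00673 and 9.27 CPM in Lv_NC, and 10.4 CPM in Lv_LINC00673 and 11.8 CPM in Lv_NC, and did not pass (-0.078, adjusted p = 0.744 for FGFR2 and -0.18, adjusted p = 0.481 for FGFR3).

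In the TAM family, named for TYRO3, AXL and MERTK, GAS6 and, for TYRO3 and MERTK, protein S link the receptors to exposed phosphatidylserine, and the 2 abundant members were lower. AXL had 741, 686 and 705 CPM in Lv_LINC00673 and 854, 921 and 935 CPM in Lv_NC. No Lv_LINC00673 library reached an Lv_NC library, and the difference was 1.27-fold (-0.35 on the log2 scale with SE 0.076, adjusted p = 0.0134). TYRO3 had 95.4, 83.8 and 84.2 CPM in Lv_LINC00673 and 113, 126 and 109 CPM in Lv_NC, again without overlap (1.32-fold lower, -0.40 on the log2 scale with SE 0.097, adjusted p = 0.0185). With the GC and length offset both stayed called, AXL at -0.25 (adjusted p = 0.00425) and TYRO3 at -0.54 (adjusted p = 0.00189). Both calls were lost with library totals (-0.18 for AXL and -0.24 for TYRO3) and on both FPKM scales. The adjusted p of AXL was 0.0528 with Lv_LINC00673 library 2 left out, 0.0613 with Lv_LINC00673 library 3 left out and 0.0559 with Lv_NC library 3 left out (0.00298 to 0.0926 across the alternatives). That of TYRO3 was 0.0658 with Lv_LINC00673 library 2 left out, 0.077 with Lv_LINC00673 library 3 left out and 0.0662 with Lv_NC library 2 left out (0.00189 to 0.131 across the alternatives). MERTK, which is best known from clearance of dead cells, had 6.97, 8.62 and 7.54 CPM in Lv_LINC00673 and 7.64, 7.83 and 7.05 in Lv_NC and did not pass (0.039 on the log2 scale with SE 0.15, adjusted p = 0.875, interval -0.31 to 0.39).

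The Wnt-binding receptors and pseudokinases moved in both directions. ROR1, a receptor for WNT5A that is normally an embryonic gene, had 1.599, 2.81 and 2.16 CPM in Lv_LINC00673 and 1.24, 0.728 and 1.10 CPM in Lv_NC. The groups did not overlap (2.14-fold higher, 1.10 on the log2 scale with SE 0.30, adjusted p = 0.0297). PTK7 had 179.6, 146 and 151 CPM in Lv_LINC00673 and 203, 212 and 188 CPM in Lv_NC, also without overlap (1.26-fold lower, -0.34 on the log2 scale with SE 0.10, adjusted p = 0.0415). On the FPKM scale ROR1 had 0.327, 0.874 and 0.376 in Lv_LINC00673 and 0.194, 0.110 and 0.171 in Lv_NC, a ratio of means of 3.32 with no overlap, and on log2(FPKM + 0.1) it did not pass in limma (1.19, adjusted p = 0.0576). ROR1 lost its call with the offset (0.73, adjusted p = 0.0548), and its adjusted p was 0.117 with Lv_LINC00673 library 2 left out, 0.0813 with Lv_LINC00673 library 3 left out, 0.0844 with Lv_NC library 2 left out and 0.0768 with Lv_NC library 3 left out (0.00952 to 0.117 across the alternatives). PTK7 was lost with library totals (-0.17) and on both FPKM scales, and its adjusted p was 0.125 with Lv_LINC00673 library 2 left out, 0.136 with Lv_LINC00673 library 3 left out, 0.0805 with Lv_NC library 1 left out, 0.12 with Lv_NC library 2 left out and 0.0703 with Lv_NC library 3 left out (0.00997 to 0.187 across the alternatives). RYK, a Wnt co-receptor with an inactive kinase domain, had 62.1, 64.6 and 75.0 CPM in Lv_LINC00673 and 85.6, 76.7 and 88.5 CPM in Lv_NC. All Lv_LINC00673 libraries were below Lv_NC and RYK did not pass (-0.31 on the log2 scale with SE 0.10, adjusted p = 0.0555), whereas it passed in DESeq2 (adjusted p = 0.0264), with RLE factors (0.0376) and with the GC and length offset at -0.92 (adjusted p = 0.00223, 0.00223 to 0.363 across the alternatives). RYK has the lowest transcript GC content of the tested members, 36.8%, from a longest annotated transcript of 5270 bases. Its counts and deposited FPKM imply a length of 3.16 to 3.17 kb in every library (described below). Whether the transcript used for the offset is the one expressed was not tested. ROR2 had 27.8, 19.2 and 25.1 CPM in Lv_LINC00673 and 24.1, 31.3 and 33.5 in Lv_NC, overlapping (-0.30, adjusted p = 0.24).

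The collagen receptors were DDR1 and DDR2, which respond to the matrix. DDR2, which prefers fibrillar collagen and is a mesenchymal gene, had 17.6, 20.8 and 16.5 CPM in Lv_LINC00673 and 12.7, 10.6 and 10.8 CPM in Lv_NC. The groups did not overlap (1.61-fold higher, 0.69 on the log2 scale with SE 0.15, adjusted p = 0.0128). DDR2 has a longest annotated transcript of 10160 bases at 41.6% GC, and with the GC and length offset the difference was -0.033 (adjusted p = 0.863). Its adjusted p was 0.054 with Lv_LINC00673 library 2 left out and 0.0562 with Lv_NC library 3 left out (0.000342 to 0.863 across the alternatives). DDR1, more typical of epithelium, is split in the table over 7 rows, the gene row and 6 numbered copies. The gene row had 16.8, 16.2 and 17.6 CPM in Lv_LINC00673 and 15.7, 19.1 and 15.4 in Lv_NC (0.015, adjusted p = 0.95). The 7 rows together had 6656, 5295 and 5996 counts in Lv_LINC00673 and 6608, 7953 and 5991 in Lv_NC (-0.042, adjusted p = 0.793), so neither form passed.

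The neurotrophin receptors, the ALK family, RET and ROS1 were scarce. LTK, a receptor for the ALKAL cytokines, was the only called gene here, with 131, 116 and 70 counts in Lv_LINC00673 and 57, 72 and 48 counts in Lv_NC. In CPM these were 1.79, 1.73 and 1.03 in Lv_LINC00673 and 0.737, 0.889 and 0.658 in Lv_NC, with library 3 the lowest of Lv_LINC00673 but above all of Lv_NC (1.99-fold, 0.99 on the log2 scale with SE 0.30, adjusted p = 0.0414). In summed counts LTK had the second smallest value of any called member in Lv_LINC00673 (317, after FLT1 at 232). In Lv_NC it had the smallest (177). The adjusted p of LTK was 0.111 with Lv_LINC00673 library 1 left out and 0.139 with Lv_LINC00673 library 2 left out. It was 0.0841 with Lv_NC library 1 left out, 0.0666 with Lv_NC library 2 left out and 0.123 with Lv_NC library 3 left out. The call on LTK was also lost with no low-count filter (0.0551), in limma-voom (0.0542) and on both FPKM scales. Its log2 fold change was 1.21 with the offset (adjusted p = 0.0162, 0.0162 to 0.139 across the alternatives). ALK, its closest relative, had 58, 67 and 63 counts in Lv_LINC00673 and 45, 60 and 56 in Lv_NC and did not pass (0.38, adjusted p = 0.367). NTRK2, the receptor for BDNF, had 1.49, 2.20 and 2.22 CPM in Lv_LINC00673 and 1.51, 0.457 and 1.29 in Lv_NC and did not pass (0.86 on the log2 scale with SE 0.41, adjusted p = 0.161, interval -0.088 to 1.80). NTRK3, the NT-3 receptor, had 25, 4 and 24 counts in Lv_LINC00673 and 44, 36 and 27 in Lv_NC (-0.87, adjusted p = 0.337). RET, which needs a GFRA co-receptor to bind GDNF-type ligands, had 26, 21 and 41 counts in Lv_LINC00673 and 39, 35 and 51 in Lv_NC (-0.36, adjusted p = 0.564). ROS1 was not tested, with 8, 27 and 8 counts in Lv_LINC00673 and 15, 4 and 4 in Lv_NC.

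Among the ephrin-A receptors, EPHA2 fell and EPHA4 rose. EPHA2 had 553, 452 and 405 CPM in Lv_LINC00673 and 794, 870.0 and 811 CPM in Lv_NC. All 3 Lv_LINC00673 libraries lay well under Lv_NC, a difference of 1.75-fold with the smallest adjusted p of the family (-0.81 on the log2 scale with SE 0.12, adjusted p = 0.0045, interval -1.08 to -0.54). It was lower under each of the 17 alternatives, from -0.96 without Lv_LINC00673 library 1 to -0.61 with the GC and length offset. EPHA4, which binds ligands of both ephrin classes, had 2.08, 3.14 and 3.27 CPM in Lv_LINC00673 and 1.33, 0.815 and 1.26 CPM in Lv_NC. Its libraries did not overlap, with library 1 the lowest of Lv_LINC00673 (2.49-fold higher, 1.32 on the log2 scale with SE 0.28, adjusted p = 0.0122). The offset gave 0.96 (adjusted p = 0.016), and the adjusted p was 0.0519 with Lv_LINC00673 library 3 left out (0.000465 to 0.0577 across the alternatives). EPHA1, in 2 rows, had 37, 11 and 14 counts in Lv_LINC00673 and 41, 37 and 40 in Lv_NC in its gene row and did not pass alone (-0.80, adjusted p = 0.277) or summed (-0.79, adjusted p = 0.206). EPHA5 had 0.984, 1.94 and 2.19 CPM in Lv_LINC00673 and 1.51, 1.58 and 2.10 in Lv_NC, overlapping (-0.023, adjusted p = 0.967). EPHA3 was not tested, with 4, 0 and 0 counts in Lv_LINC00673 and 0 in each Lv_NC library, and EPHA7 had 0 counts throughout.

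Of the ephrin-B receptors, EPHB1 fell. EPHB1 had 8.06, 10.5 and 10.3 CPM in Lv_LINC00673 and 15.1, 15.0 and 16.2 CPM in Lv_NC. The groups were separate (1.61-fold lower, -0.68 on the log2 scale with SE 0.15, adjusted p = 0.0136), also with the offset (-0.61, adjusted p = 0.012). The call was lost with library totals (adjusted p = 0.0517), on both FPKM scales and at 0.0553 with Lv_NC library 3 left out (0.00011 to 0.0674 across the alternatives). EPHB4, a venous receptor for ephrin-B2, had 154, 129 and 134 CPM in Lv_LINC00673 and 154, 171 and 161 in Lv_NC, and did not pass (-0.22 on the log2 scale with SE 0.095, adjusted p = 0.118) except without Lv_LINC00673 library 1 (adjusted p = 0.0305, 0.0305 to 0.62 across the alternatives). EPHB2 had 122, 98.7 and 78.8 CPM in Lv_LINC00673 and 73.3, 87.3 and 106 in Lv_NC. Those libraries spread widely within each group and overlapped (0.16 on the log2 scale with SE 0.18, adjusted p = 0.54). EPHB3 had 5.40, 5.18 and 5.18 CPM in Lv_LINC00673 and 6.62, 6.11 and 7.02 in Lv_NC and did not pass (-0.33 on the log2 scale with SE 0.15, adjusted p = 0.139). EPHB6, which has an inactive kinase domain, had 19.8, 15.5 and 14.7 CPM in Lv_LINC00673 and 14.5, 16.0 and 13.5 in Lv_NC in its gene row (0.19, adjusted p = 0.412) and passed with the offset (0.35, adjusted p = 0.0399, 0.0399 to 0.892 across the alternatives). Summed with its numbered copy it gave 0.040, adjusted p = 0.848.

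**Figure D3:**
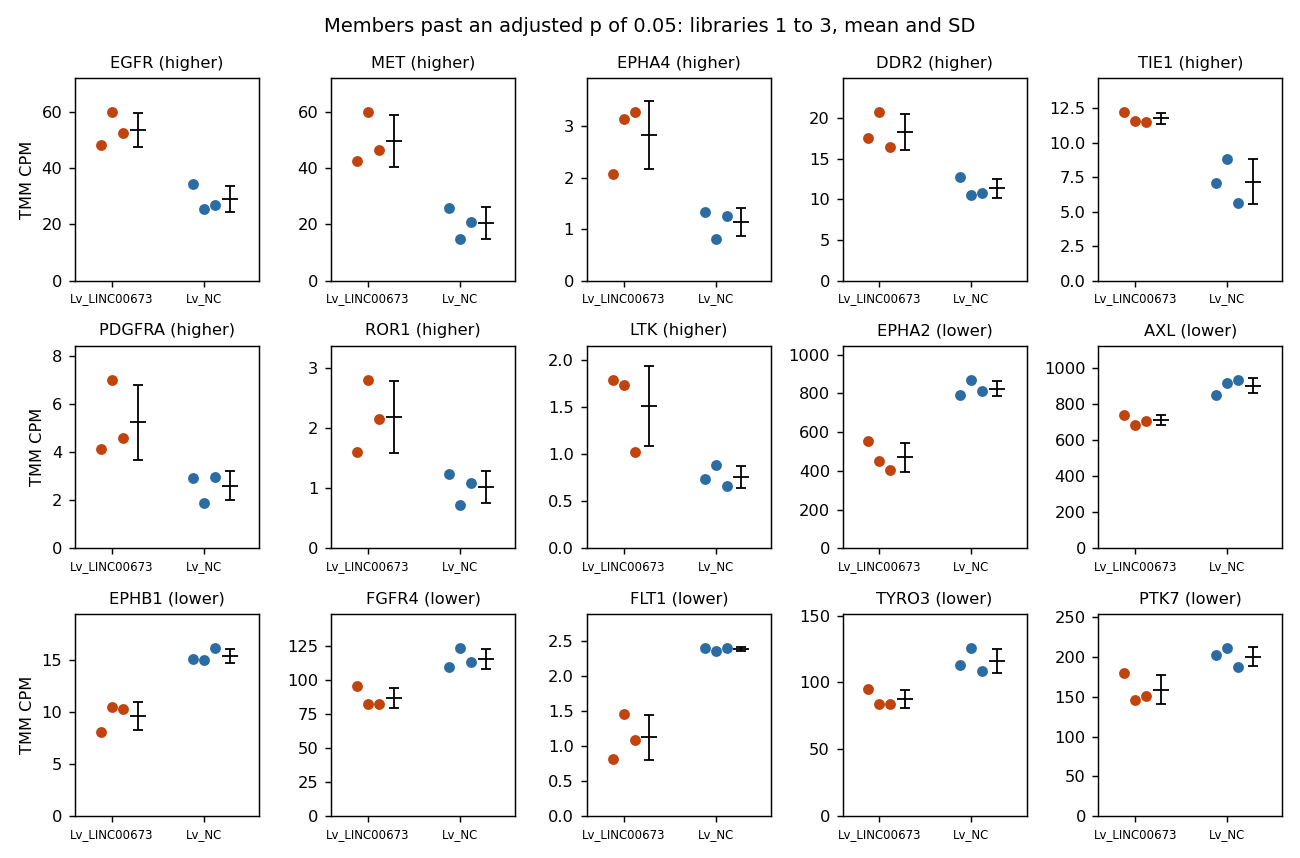
TMM-normalized CPM of the 15 called members, with 1 point for each of libraries 1 to 3, Lv_LINC00673 left and Lv_NC right, and the mean with its SD beside the points (n = 3 each); axes start at 0 and differ between panels. In each panel the groups do not overlap, and the gap is wide for EPHA2 and MET and narrow for PTK7 and LTK.

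The ligand genes of the receptors were examined next. Of 55 listed ligands 44 were tested, 4 of them higher and 9 lower in Lv_LINC00673, a share of 29.5% called beside 26.8% of all tested rows. Their median log2 fold change was -0.13 (0.052 over all tested rows). Of the ligands of EGFR, HBEGF and AREG, made as membrane-bound precursors, were lower while the receptor's counts were higher. HBEGF had 2946, 2576 and 2698 counts in Lv_LINC00673 and 6022, 6174 and 5986 in Lv_NC (39.4 ± 0.899 CPM in Lv_LINC00673 and 78.7 ± 3.04 CPM in Lv_NC, SD, n = 3 each; -0.997 on the log2 scale with SE 0.086, adjusted p = 0.00123). AREG averaged 20.6 ± 0.156 CPM in Lv_LINC00673 and 35.4 ± 2.89 CPM in Lv_NC (SD, n = 3 each; -0.78 on the log2 scale with SE 0.11, adjusted p = 0.0044). Both were called under all 17 alternatives. TGFA, EREG and EGF did not pass (-0.23, adjusted p = 0.219 for TGFA, 0.53, adjusted p = 0.107 for EREG and 0.14, adjusted p = 0.797 for EGF), though TGFA was called lower with the offset (-0.36, adjusted p = 0.02).

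Other ligands moved both ways. PDGFC, a ligand of PDGFRA, had 742, 796 and 780 counts in Lv_LINC00673 and 419, 287 and 351 in Lv_NC (1.28 on the log2 scale with SE 0.19, adjusted p = 0.00481), called under all 17 alternatives. KITLG, the ligand of the nearly absent KIT, had 281, 375 and 365 counts in Lv_LINC00673 and 205, 96 and 136 in Lv_NC (1.38 on the log2 scale with SE 0.30, adjusted p = 0.0133). Its adjusted p was 0.0514 with Lv_LINC00673 library 2 left out, 0.0511 with Lv_LINC00673 library 3 left out and 0.0547 with Lv_NC library 3 left out (0.000146 to 0.0587 across the alternatives). PDGFA, PDGFB and PDGFD did not pass (-0.47, adjusted p = 0.422 for PDGFA, -0.23, adjusted p = 0.144 for PDGFB and 0.43, adjusted p = 0.459 for PDGFD). PROS1, which encodes protein S, a ligand of TYRO3 and MERTK, was higher at 7.11 ± 1.64 CPM in Lv_LINC00673 and 3.66 ± 0.742 CPM in Lv_NC (SD, n = 3 each; 0.96 on the log2 scale with SE 0.24, adjusted p = 0.0196). The call on PROS1 was lost at 0.0756 with Lv_LINC00673 library 2 left out, 0.0776 with Lv_LINC00673 library 3 left out, 0.0522 with Lv_NC library 2 left out and 0.0527 with Lv_NC library 3 left out (0.0012 to 0.0776 across the alternatives). GAS6 was at 79.1 ± 9.04 CPM in Lv_LINC00673 and 93.5 ± 5.99 CPM in Lv_NC, and did not pass (-0.24 on the log2 scale with SE 0.11, adjusted p = 0.127). FGF1, which binds all FGF receptors, and FGF21, a hormone that acts mainly through FGFR1 with beta-klotho, were lower, FGF1 at 39.7 ± 2.82 CPM in Lv_LINC00673 and 71.2 ± 3.57 CPM in Lv_NC (-0.84 on the log2 scale with SE 0.097, adjusted p = 0.00297) and FGF21 at 2.82 ± 0.0775 CPM in Lv_LINC00673 and 5.38 ± 0.712 CPM in Lv_NC (-0.93 on the log2 scale with SE 0.17, adjusted p = 0.00778).

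VEGFA, the main ligand of FLT1, was lower at 92.0 ± 2.61 CPM in Lv_LINC00673 and 116 ± 7.90 CPM in Lv_NC (-0.33 on the log2 scale with SE 0.087, adjusted p = 0.0245). It was not called with library totals or on either FPKM scale, and its adjusted p was 0.0791 with Lv_LINC00673 library 2 left out, 0.0769 with Lv_LINC00673 library 3 left out, 0.0805 with Lv_NC library 2 left out and 0.0915 with Lv_NC library 3 left out (0.00225 to 0.152 across the alternatives). VEGFB and PGF, which also bind FLT1, did not pass (-0.21, adjusted p = 0.182 for VEGFB and 0.033, adjusted p = 0.853 for PGF), though PGF was called higher with the offset (0.24, adjusted p = 0.0485). EFNB1 was the called ephrin gene, at 52.5 ± 5.78 CPM in Lv_LINC00673 and 69.5 ± 4.47 CPM in Lv_NC (-0.40 on the log2 scale with SE 0.11, adjusted p = 0.0266), and its adjusted p was 0.0871 with Lv_LINC00673 library 2 left out, 0.094 with Lv_LINC00673 library 3 left out, 0.0736 with Lv_NC library 2 left out and 0.0937 with Lv_NC library 3 left out (0.00677 to 0.113 across the alternatives). With the offset EFNB1 was -0.15 (adjusted p = 0.113), and it was not called with library totals or on either FPKM scale. EFNB3 did not pass (-0.15, adjusted p = 0.33), and EFNB2 had 13, 5 and 5 counts in Lv_LINC00673 and 0, 5 and 0 in Lv_NC. The 5 ephrin-A genes did not pass, with log2 fold changes of -0.35 for EFNA1, -0.037 for EFNA2, -0.30 for EFNA3, -0.49 for EFNA4 and -0.30 for EFNA5 (adjusted p from 0.0555 to 0.894). EFNA5 was called lower with the offset (-0.68, adjusted p = 0.0057). WNT5A, the ligand of ROR1, did not pass (0.25, adjusted p = 0.214). ALKAL1 had 0, 4 and 15 counts in Lv_LINC00673 and 12, 0 and 4 in Lv_NC, and ALKAL2 had none. Of the angiopoietin genes, ANGPT2 had 37, 94 and 40 counts in Lv_LINC00673 and 16, 4 and 4 in Lv_NC. It was called higher (2.98 on the log2 scale with SE 0.69, adjusted p = 0.0158) at means of 0.832 and 0.104 CPM. The offset gave 2.41 for ANGPT2 (adjusted p = 0.0191). ANGPT1 had 12, 28 and 9 counts in Lv_LINC00673 and 5, 0 and 0 in Lv_NC and did not pass (3.36, adjusted p = 0.0683). With the offset 8 ligands were higher and 12 lower, and without Lv_LINC00673 library 2 or 3 the total was 8 called. With the offset KITLG was at 0.77, PROS1 at 0.57 and FGF21 at -0.49, all 3 still called.

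The proteins that carry or end the signal formed 3 more lists. Of 23 tested adaptors and effectors 8 were higher and 3 lower, which is 47.8% called, beside 26.8% of all tested rows and 40.9% of those at 10 CPM or more. The list's median log2 fold change was 0.054. The higher genes of largest change were GAB1, a docking protein for MET and EGFR (1.63, adjusted p = 0.0339), the RAS exchange factors SOS1 (1.29, adjusted p = 0.00973) and SOS2 (1.15, adjusted p = 0.00721), the PI3-kinase subunit PIK3R1 (1.28, adjusted p = 0.0163), FRS2, the docking protein of FGF receptors (1.16, adjusted p = 0.0343), and RASA1, which inactivates RAS (1.07, adjusted p = 0.0108). SOS1, for example, averaged 16.8 ± 2.84 CPM in Lv_LINC00673 and 6.86 ± 2.32 CPM in Lv_NC (SD, n = 3 each). FRS2 was the one whose libraries overlapped, with 4.50, 9.23 and 8.07 CPM in Lv_LINC00673 and 4.72, 2.54 and 2.45 in Lv_NC. The 3 lower genes were the adaptors SHC1 (-0.36, adjusted p = 0.0199) and NCK2 (-0.43, adjusted p = 0.0192) and the PI3-kinase subunit PIK3R2 (-0.37, adjusted p = 0.049). With the GC and length offset 4 of this list were higher and 1 lower. The values were 0.93 for GAB1 (adjusted p = 0.084), 0.46 for FRS2 (adjusted p = 0.15), 0.55 for SOS1 (adjusted p = 0.0179), 0.57 for SOS2 (adjusted p = 0.0279), 0.65 for PIK3R1 (adjusted p = 0.0394) and 0.74 for RASA1 (adjusted p = 0.00983). Those of the lower genes were -0.13 for SHC1 (adjusted p = 0.0535), -0.12 for NCK2 (adjusted p = 0.273) and -0.21 for PIK3R2 (adjusted p = 0.0765), none of which was called with it; the 1 gene called lower was the phospholipase PLCG1 (-0.32, adjusted p = 0.00566, against -0.25, adjusted p = 0.0705 without it), named after its values were seen. These 3 also lost their calls with library totals and on both FPKM scales, and FRS2 on both FPKM scales. Their adjusted p ran over the alternatives from 0.00621 to 0.103 for SHC1, 0.00272 to 0.273 for NCK2 and 0.0224 to 0.218 for PIK3R2. SHC1 and PIK3R2 lost the call when library 2 or 3 of either group was dropped, and NCK2 when library 2 or 3 of Lv_NC was. The list held 4 calls when library 2 of Lv_LINC00673 or library 3 of Lv_NC was dropped, and 5 when library 3 of Lv_LINC00673 or library 2 of Lv_NC was. GAB1 had an adjusted p of 0.101 with Lv_LINC00673 library 2 left out, 0.112 with Lv_LINC00673 library 3 left out and 0.0866 with Lv_NC library 3 left out (0.00202 to 0.112 across the alternatives), FRS2 of 0.121 with Lv_LINC00673 library 2 left out, 0.107 with Lv_LINC00673 library 3 left out, 0.0946 with Lv_NC library 2 left out and 0.121 with Lv_NC library 3 left out (0.00252 to 0.15 across the alternatives) and PIK3R1 of 0.0615 with Lv_LINC00673 library 2 left out and 0.0692 with Lv_NC library 3 left out (0.000172 to 0.0692 across the alternatives).

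Among 25 tested genes that restrain receptors or govern their turnover, 8 were higher and 3 lower. That is 44% called, beside 26.8% of all tested rows and 40.9% of those at 10 CPM or more, and the list's median was 0.19 on the log2 scale (0.052 over all tested rows). The ubiquitin ligases CBL (0.82, adjusted p = 0.00806) and CBLB (0.96, adjusted p = 0.0107) were higher, as were USP8, a deubiquitinase of receptor sorting (1.16, adjusted p = 0.00901), ADAM10, a protease that sheds ligands and receptors (1.12, adjusted p = 0.00827), the receptor phosphatase PTPRG (0.90, adjusted p = 0.0107) and SOCS5 (0.87, adjusted p = 0.026). CBL averaged 62.0 ± 6.24 CPM in Lv_LINC00673 and 35.1 ± 7.03 CPM in Lv_NC (SD, n = 3 each). The 3 lower genes were SPRY2, a feedback inhibitor of RAS signalling (-0.63, adjusted p = 0.00646), LRIG1, which promotes turnover of EGF receptors (-0.45, adjusted p = 0.0318), and SOCS3, a cytokine feedback inhibitor (-0.40, adjusted p = 0.0273). With the offset the list had 5 higher and 7 lower. CBL went to 0.34 (adjusted p = 0.0238), USP8 to 0.25 (adjusted p = 0.148), CBLB to 0.38 (0.178), SOCS5 to 0.33 (0.0981), PTPRG to 0.30 (0.0354) and ADAM10 to 0.28 (0.0363). The 3 genes lower without the offset were at -0.50 for SPRY2 (adjusted p = 0.007), -0.38 for LRIG1 (adjusted p = 0.0123) and -0.091 for SOCS3 (adjusted p = 0.375). Called lower only with the offset were UBASH3B (-0.81, adjusted p = 0.000408), ADAM17 (-0.48, 0.00558), PTPRF (-0.34, 0.00257), PTPRJ (-0.32, 0.0189) and ERRFI1 (-0.29, 0.00713). They were named after their values were seen. ADAM17 was at 0.19 without the offset. LRIG1 and SOCS3 lost their calls with library totals, on both FPKM scales and when library 2 or 3 of either group was dropped, with adjusted p over the alternatives from 0.00387 to 0.136 for LRIG1 and 0.00545 to 0.375 for SOCS3. The balance of calls in this list therefore depended on the offset, and the list held 7 calls without Lv_LINC00673 library 2 or without Lv_NC library 3. SOCS5 had an adjusted p of 0.0836 with Lv_LINC00673 library 2 left out, 0.095 with Lv_LINC00673 library 3 left out, 0.0684 with Lv_NC library 2 left out and 0.0979 with Lv_NC library 3 left out (0.00155 to 0.0981 across the alternatives).

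Of 12 tested co-receptors 16.7% were called, beside 26.8% of all tested rows. NRP1, which binds VEGF and semaphorins, was higher (0.65 on the log2 scale with SE 0.12, adjusted p = 0.00766) and the heparan sulfate carrier SDC1 lower (-0.37 on the log2 scale with SE 0.092, adjusted p = 0.0194). SDC1 was also not called with library totals or on either FPKM scale. Neither was called with the offset (0.32, adjusted p = 0.0815, for NRP1 and -0.11, 0.112, for SDC1). SDC1 had an adjusted p of 0.0666 with Lv_LINC00673 library 2 left out, 0.0712 with Lv_LINC00673 library 3 left out, 0.0661 with Lv_NC library 2 left out and 0.0573 with Lv_NC library 3 left out (0.00467 to 0.112 across the alternatives). The list had 4 calls without Lv_LINC00673 library 1 and 1 without each of Lv_LINC00673 libraries 2 and 3 and Lv_NC libraries 2 and 3. Of 12 other receptor tyrosine kinases tested, also 16.7% called, LMTK2 was higher (0.43 on the log2 scale with SE 0.096, adjusted p = 0.0136) and EPHA8 lower (-0.68 on the log2 scale with SE 0.20, adjusted p = 0.0366). LMTK2 was not called with the offset (0.23, adjusted p = 0.0564), and EPHA8 was not with library totals or on either FPKM scale. LMTK2 had an adjusted p of 0.0587 with Lv_LINC00673 library 2 left out, 0.0575 with Lv_LINC00673 library 3 left out and 0.0515 with Lv_NC library 2 left out (0.00323 to 0.0811 across the alternatives) and EPHA8 of 0.115 with Lv_LINC00673 library 2 left out, 0.0938 with Lv_LINC00673 library 3 left out, 0.08 with Lv_NC library 1 left out and 0.11 with Lv_NC library 3 left out (0.0107 to 0.115 across the alternatives). There were 4 calls without Lv_LINC00673 library 1, 0 without Lv_LINC00673 library 2 and 1 without each of the other libraries. All lists had been assembled with earlier results of these libraries known, so their counts are descriptions.

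The called members differed in transcript composition. The 8 higher genes had a median transcript GC content of 44.5% and a median length of 6461 bases, and the 7 lower genes 53.9% and 4737 bases. The 39 tested members had medians of 53.9% and 5282 bases, against 50.02% and 3292 bases for the 18530 tested rows with a value. Across the 39 members, which are not independent, the Spearman correlation of log2 fold change with GC content was -0.26, and with length 0.26. Over all tested rows with a value it was -0.40 and 0.30. These values share the same 6 libraries and are a description. The higher genes MET, EPHA4, EGFR, DDR2, ROR1 and PDGFRA lie below 50% GC, and TIE1 and LTK above 60%.

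After a per-library offset for GC content and length, 6 members were higher and 8 lower, in a background of 29.9% of 18530 rows called (15.4% higher and 14.5% lower). MET, EGFR, EPHA4, TIE1 and LTK stayed higher and EPHB6 joined them. EPHA2, AXL, EPHB1, FLT1, TYRO3 and PTK7 stayed lower and RYK and FGFR1 joined them. PDGFRA, ROR1, DDR2 and FGFR4 did not pass. TIE1 and LTK, the GC-rich genes among those higher, gave larger log2 fold changes with the offset (0.93 and 1.21) than without (0.71 and 0.99), and the GC-poor higher genes gave smaller ones. The correlation of GC content with log2 fold change over the members was 0.11 with the offset. The offset removes a trend with GC content and length fitted on these same 6 libraries. Such shifts and a weaker correlation are therefore built into it and are not a separate result. Whether composition of the transcripts or the groups themselves lay behind the values that moved was not tested.

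**Figure D4:**
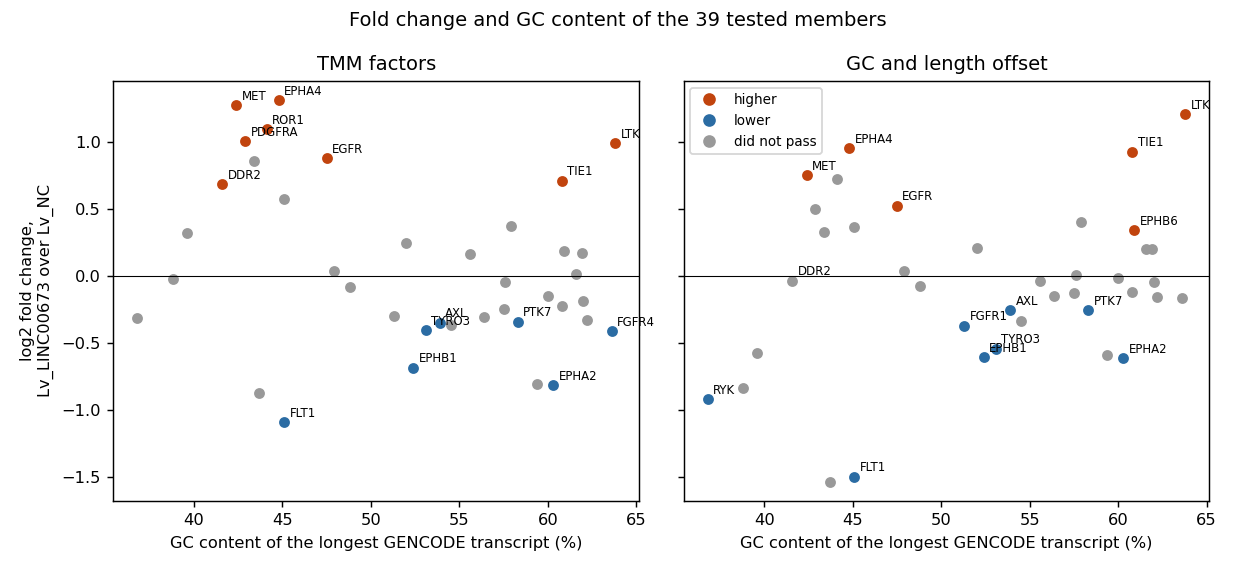
Log2 fold change (Lv_LINC00673 over Lv_NC) of the 39 tested members against the GC content of the longest annotated transcript, with TMM factors alone on the left and with the GC and length offset on the right; each point is a gene, coloured where the adjusted p was under 0.05. All higher genes but TIE1 and LTK on the left lie below 50% GC, and DDR2 is at -0.033 on the right.

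The count and FPKM tables gave different pictures of a few genes. Dividing each count per library total by the deposited FPKM gives the length, in kilobases, that the FPKM of each library implies. For 23 of 35 members with a mean FPKM of at least 0.1 the ratio of this length between the groups lay within 5% of the median ratio of 1.00. EPHA2 implied 4.10, 4.09 and 4.05 kb in Lv_LINC00673 and 4.08, 4.09 and 4.08 kb in Lv_NC. For EGFR the implied length was 10.2, 9.03 and 8.83 kb in Lv_LINC00673 and 6.41, 4.37 and 5.27 kb in Lv_NC. The 3 Lv_LINC00673 values all exceed the 3 Lv_NC values, and the ratio of 1.75 is the highest of the 35. EGFR counts were 3513, 4003 and 3572 in Lv_LINC00673 and 2662, 2066 and 1965 in Lv_NC. ERBB3 came next at a ratio of 1.39, with 4.21, 5.54 and 4.88 kb in Lv_LINC00673 and 3.49, 3.04 and 4.00 kb in Lv_NC, and MET had 1.11. ROR1 had the lowest ratio, 0.797. The offset used the longest annotated transcript, which differed from the implied length for some members. RYK had 5270 bases beside a mean of 3.17 kb in Lv_LINC00673 and 3.16 kb in Lv_NC, and TYRO3 8207 bases beside 6.02 and 6.03 kb. EPHA2 had 3964 bases beside a mean of 4.08 kb in each group. The sources used here do not state how the deposited FPKM values took account of transcript length, so the 2 scales are reported side by side. In FPKM 9 members were higher and 7 lower without overlap between the groups, while 42.3% of rows with a mean of at least 0.1 FPKM did not overlap.

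**Figure D5:**
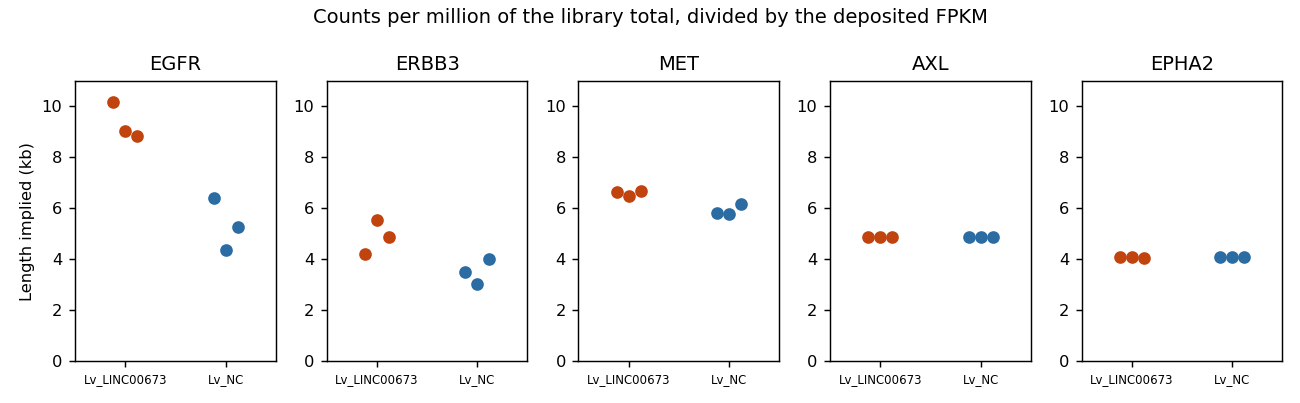
Transcript length in kilobases implied by each library, from counts scaled by the library total and divided by the deposited FPKM, for 5 members, with 1 point per library (Lv_LINC00673 left, Lv_NC right) and axes from 0. EGFR lies at 8.83 to 10.2 kb in Lv_LINC00673 and 4.37 to 6.41 kb in Lv_NC, whereas EPHA2 lies at 4.05 to 4.10 kb in all libraries.

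Several members share exonic bases with another gene on the opposite strand in the GENCODE annotation. EGFR shares 186 bases with EGFR-AS1, ERBB2 571 with MIEN1 and 194 with PGAP3, EPHA5 535 with EPHA5-AS1, and FGFR1 138 with LETM2. EPHA1 shares 82 bases with ZYX, EPHB4 69 with SLC12A9 and EPHB1 64 with KY. Opposite-strand genes without a count row include AC079834.2, sharing 353 bases with EPHA4, AC105935.2, 327 with MST1R, and AC011510.1, 67 with AXL. The sources used here do not state a strand setting for the counting, so reads from these stretches cannot be assigned to one strand. On the same strand, the largest overlap was 1533 bases of PDGFRA with AC058822.1, a protein-coding gene without a count row.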

How the data were processed

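Per the labels' protocols, TRIzol RNA of U2OS cells went into 6 TruSeq RNA libraries. The authors deposited raw read counts per gene and, in a second table, FPKM values per gene, which are normalized for length and depth by a method the sources used here do not give. The build was hg38, per the submitters' processing notes. The sources used here do not name an aligner, a counter, an annotation release or a strand setting.

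Libraries were grouped by title (Lv_LINC00673, n = 3, over Lv_NC, n = 3), and 0 columns were unmatched. The members and all gene lists were chosen with earlier results of these data known. The counts passed filterByExpr and TMM scaling before the two-sided, robust quasi-likelihood test of edgeR 4.0.16 (R 4.3.3); p-values of 21933 rows were adjusted together by Benjamini-Hochberg, with 0.05 as threshold. Rows that the table calls new genes stayed in. They held 4.09, 4.09 and 4.26% of counts in Lv_LINC00673 and 3.32, 3.22 and 3.73% in Lv_NC, without overlap. SE is the log2 fold change over the square root of F, and intervals are at 95%. All 44 members are described. From each list up to 6 called genes averaging 1 CPM or more, those with the largest change, are named. A set of ligands of called members is named as well, which is not complete and leaves out FGF2. The lower genes of the adaptor and restraint lists, ANGPT1 and ANGPT2 were chosen after their values were seen. Genes named for their overlap or markers were chosen after their values were seen.

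There were 17 alternatives: 6 that leave out 1 library, DESeq2 1.42.0, unfiltered counts, RLE factors, scaling by totals, a filter of 1 CPM in 3 libraries, a replicate block, limma-voom and limma on log2(FPKM + 1) and log2(FPKM + 0.1) (limma 3.58.1, mean FPKM of at least 0.1), an offset for GC content and length, and numbered copies summed. The last, and the alternatives for list genes, were added after seeing the data. The offset used natural splines (5 df each) of log2 CPM deviations per library on GC content and log2 length of the longest GENCODE transcript, fitted on genes above log2 CPM 2; 84.5% of tested rows and all 39 tested members had both values. The fits were run on simulated counts. The simulation for the offset added a drift with GC content alone, so the length part of the offset was not checked. No 2 libraries agreed within sampling noise. The floor of 3 counts covers counting error only. Promoters are RefSeq's (GRCh38.p14), found for 41 of the 44 members, with 1-based coordinates.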

Additional observations from a re-analysis of the deposited data

How the results depend on the processing

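Deviations from the group means of libraries with the same number correlated at -0.42, -0.36 and 0.04 over 12349 genes. Correlations between libraries with different numbers ran from -0.14 to 0.45. The 3 deviations of a group sum to 0, so these values cannot decide whether the numbers pair the libraries. With the replicate number as a block, 1208 genes were called of 5883, 2 members higher of 8, 1 lower of 7, 4 ligands of 13, 0 co-receptors of 2, 1 adaptor of 11, 1 restraint gene of 11 and 0 other receptor tyrosine kinases of 2. Leaving out 1 library gave 2716 (without Lv_LINC00673 library 2) to 6490 genes (without Lv_LINC00673 library 1), 3 to 7 members higher, 2 to 10 lower, 8 to 18 ligands, 1 to 4 co-receptors, 4 to 14 adaptors, 7 to 14 restraint genes and 0 to 4 other receptor tyrosine kinases. Library totals left 2 members lower. Each FPKM fit gave 4 members higher, 1 lower and 7 adaptors. The offset gave 20 ligands, 1 co-receptor, 5 adaptors and 1 other receptor tyrosine kinase. The causes of these differences were not tested.

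The sign of some log2 fold changes turned, and among them DDR2 was the only called gene. On log2(FPKM + 1), these were ERBB3 -0.032, PDGFRB 0.070, FGFR2 0.10, EPHA5 0.054, EFNA2 0.089 and EFNB3 0.0089. On log2(FPKM + 0.1), these were ERBB3 -0.050, PDGFRB 0.088, FGFR2 0.14, EPHA5 0.19, EFNA2 0.11 and EFNB3 0.0097. With the offset, these were ERBB4 -0.57, PDGFRB 0.013, DDR2 -0.033, EPHB2 -0.035, EGF -0.14, EREG -0.021, PDGFB 0.0033, VEGFB 0.15, GAS6 0.065, WNT5A -0.25, EFNA1 0.037, EFNA2 0.25, EFNA3 0.096 and EFNB3 0.12. With library totals, these were PDGFRB 0.12, FGFR2 0.090, MST1R 0.017, EPHA5 0.15, EFNA2 0.13 and EFNB3 0.013. With RLE factors, this was DDR1 -0.014. In DESeq2, this was DDR1 -0.014. With copies summed, this was DDR1 -0.042. With the 1 CPM filter, this was EPHA5 0.013. Leaving out 1 library gave ranges across 0 for ERBB4 -0.21 to 0.87, PDGFRB -0.096 to 0.0036, MST1R -0.39 to 0.014, MERTK -0.065 to 0.093, DDR1 -0.048 to 0.12, EPHA5 -0.25 to 0.24, EPHB2 -0.019 to 0.31, EGF -0.18 to 0.42, PGF -0.061 to 0.082 and EFNA2 -0.13 to 0.061. The cause was not tested. No other member turned under the alternatives run, nor did another list gene named by the rule stated above. The markers, PLCG1, ANGPT1, ANGPT2 and the restraint genes named only for their offset calls are not covered here.

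Limits: 3 libraries a group leave intervals over 1 log2 unit wide for scarce members, library totals move the median of all rows by 0.17 and the log2(FPKM + 0.1) scale by 0.11, and members under 1 CPM rest on few reads.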
